A study of Mus musculus with 16 samples.

Results

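Tumours in which midkine had been knocked down and no checkpoint antibody was given were compared directly with tumours that kept midkine and received an antibody against PD1. The comparison takes 8 of the 16 tumours of the study, chosen by their labels alone. The 4 Mdk-knockdown tumours came from B16R2L mouse melanoma cells carrying a hairpin against Mdk (shMdk) in mice that received the IgG2a control antibody. The 4 anti-PD1 tumours came from B16R2L cells carrying a non-targeting hairpin (shCtrl) in mice that received anti-PD1, clone RMP1-14, at 10 mg/kg per the sample labels. Antibodies were given 2 times a week for 2 weeks once a tumour had reached 100 mm3. The other tumours of the study, shCtrl under IgG2a (4, called untreated controls below) and shMdk under anti-PD1 (4, called the combination), serve as references. The 2 groups compared differ in both the hairpin and the antibody, so neither is the other's control. Each line carried 1 hairpin, so a difference between the lines cannot be told apart from an effect of losing Mdk. Mouse strain and age are not given in the sources used here, and replicate numbers only name a tumour.

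Midkine, the product of Mdk, is a secreted heparin-binding growth factor that is abundant in embryos and in many tumours, melanoma among them. PD1 is an inhibitory receptor on activated T cells, and antibodies that block it release T cells from inhibition by its ligands. Activated T cells and natural killer cells secrete interferon gamma, which acts in part through the transcription factor Irf1 to raise guanylate-binding proteins, chemokines such as Cxcl9, MHC molecules and the machinery that cuts and loads peptides onto them.

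RNA was read from the 3′ end of transcripts. A normalised count below is the number of reads of a gene divided by the size factor of its library, and a log2 fold change is a difference of mean log2(normalised count + 1), positive where the gene was higher in Mdk-knockdown tumours. The 8 libraries held 5686405 to 8675012 reads, and anti-PD1 tumour 2 was the shallowest. Melanoma lineage was checked by the summed level of 19 pigment cell genes, which lay between 167893 and 234322 in the 8 tumours. Anti-PD1 tumour 2 and Mdk-knockdown tumour 1 had 4.47% and 3.17% of reads on Gm42418, a gene model overlapping ribosomal RNA sequence. Anti-PD1 tumour 2 also held a summed red blood cell signal of 574472, against 3576 to 32281 in the other 7. The dependence of the values on GC content of the 3′ end separated the groups: its slope was -0.0873 to -0.0546 log2 units per 10% GC in the anti-PD1 tumours and -0.0179, -0.0084, 0.0937 and 0.1926 in the knockdown tumours (two-sided exact permutation p = 0.0286). Results are therefore also given with that slope as a covariate and without the libraries named, settings chosen after the data were seen.

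Mdk, the targeted gene (ENSMUSG00000027239.14, GRCm38 chromosome 2, 91929805 to 91932297, minus strand), had 150.2, 203, 323 and 121 normalised counts in Mdk-knockdown tumours and 925, 606, 1104 and 856 in anti-PD1 tumours. The groups did not overlap, and the hairpin labels held in all 8 tumours. The knockdown mean was 22.8% of the anti-PD1 mean (199 ± 89.3 against 873 ± 206, SD, n = 4 each), with a two-sided exact permutation p of 0.0286, the smallest that 4 tumours against 4 can give. The log2 fold change was -2.19 ± 0.36 (SE, limma adjusted p = 0.0135). Among midkine's homologue and reported receptors, 11 further genes were tested and 0 passed in limma; Sdc3, a syndecan, had means of 138 ± 36.1 in knockdown and 116 ± 20.3 in anti-PD1 tumours (log2 fold change 0.23 ± 0.20; 0.43 ± 0.19 with the GC slope of each library as a covariate).

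Across 14672 genes, 22 (0.150%) passed an adjusted p under 0.05 in limma, 18 higher in Mdk-knockdown tumours (0.123%) and 4 lower (0.0273%). At least a 2-fold change was seen for 17 of the 18 and 2 of the 4. The genes higher with knockdown that are described here included the gene models Gm43305 and Gm42427, whose roles were not examined, and Prph, a neuronal gene. Others were genes of leukocytes (Gzmc, Ighg2c, Itgax, Slamf7, Slamf8, Plek, Cyth4) and Mcub. The rest belonged to the interferon response and its neighbours (Ubd, Irf8, Tap1, Tmem173, Slc15a3 and, by prediction, F830016B08Rik). This grouping was made after their values were seen. The genes lower with knockdown were Mdk, Ippk, Ano3 and Dcdc2a. The median log2 fold change over all genes was 0.00, and an unadjusted p under 0.05 was reached by 1911 (13.0%), 7.05% higher and 5.97% lower. The groups did not overlap for 1445 genes (9.85%), 4.59% higher and 5.26% lower.

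**Figure D1:**
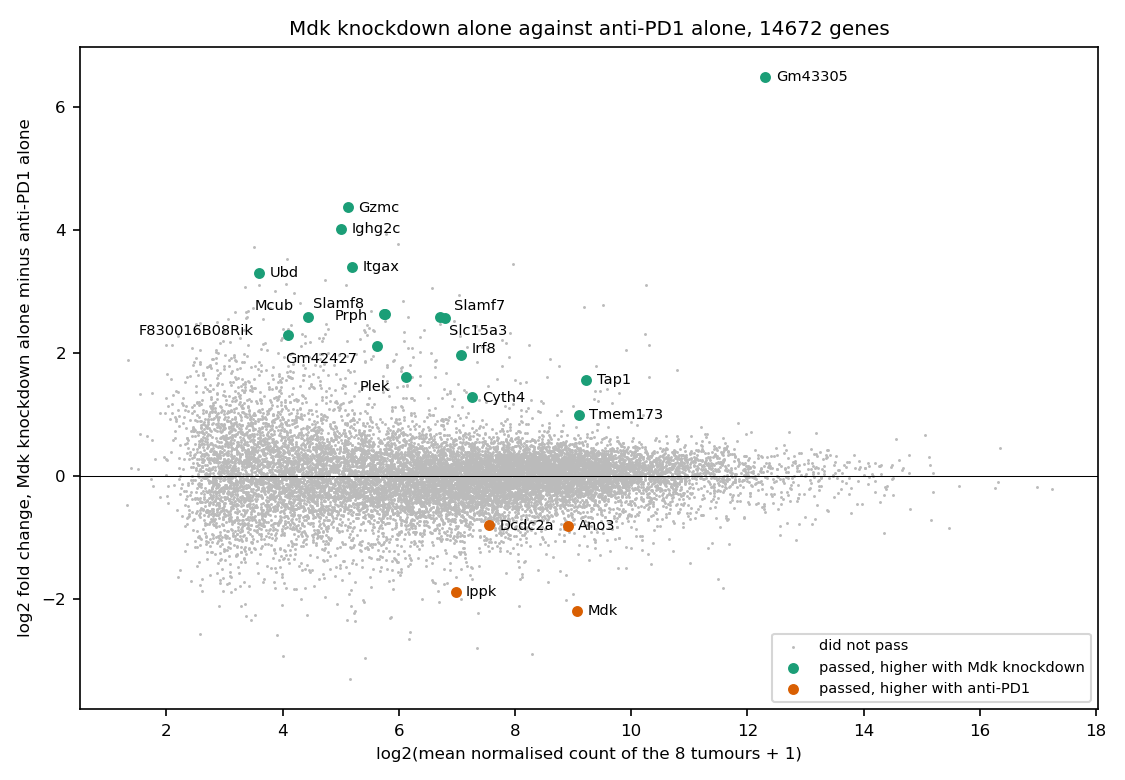
The log2 fold change of each gene (Mdk knockdown alone minus anti-PD1 alone, y axis) is plotted against its mean level, log2(mean normalised count of the 8 tumours + 1), on the x axis. Coloured points are 21 of the 22 genes that passed, 17 above and 4 below 0 (the other is not drawn), and Gm43305 stands highest at 6.49.

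The count moved when single tumours or libraries were left out. It was 8, 13, 66 and 64 without anti-PD1 tumours 1, 2, 3 and 4 and 6, 58, 6 and 8 without Mdk-knockdown tumours 1, 2, 3 and 4. In each of the 8 fits 5 genes passed, Gm43305, Gzmc, Ighg2c and Itgax among them, and the other 17 passed in 2 to 7 of them. Mdk itself passed in 5, with adjusted p from 0.0176 to 0.0731. With the GC slope of each library as a covariate 2 genes passed, Gm43305 among them, and the other 20 kept their direction with adjusted p from 0.0578 to 0.179. Without the libraries high in Gm42418 3 genes passed, and without the 5 libraries of the study whose GC slope exceeded 0.05, which leaves 2 knockdown tumours, 1 passed. All 22 genes kept their direction under those settings.

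**Figure D2:**
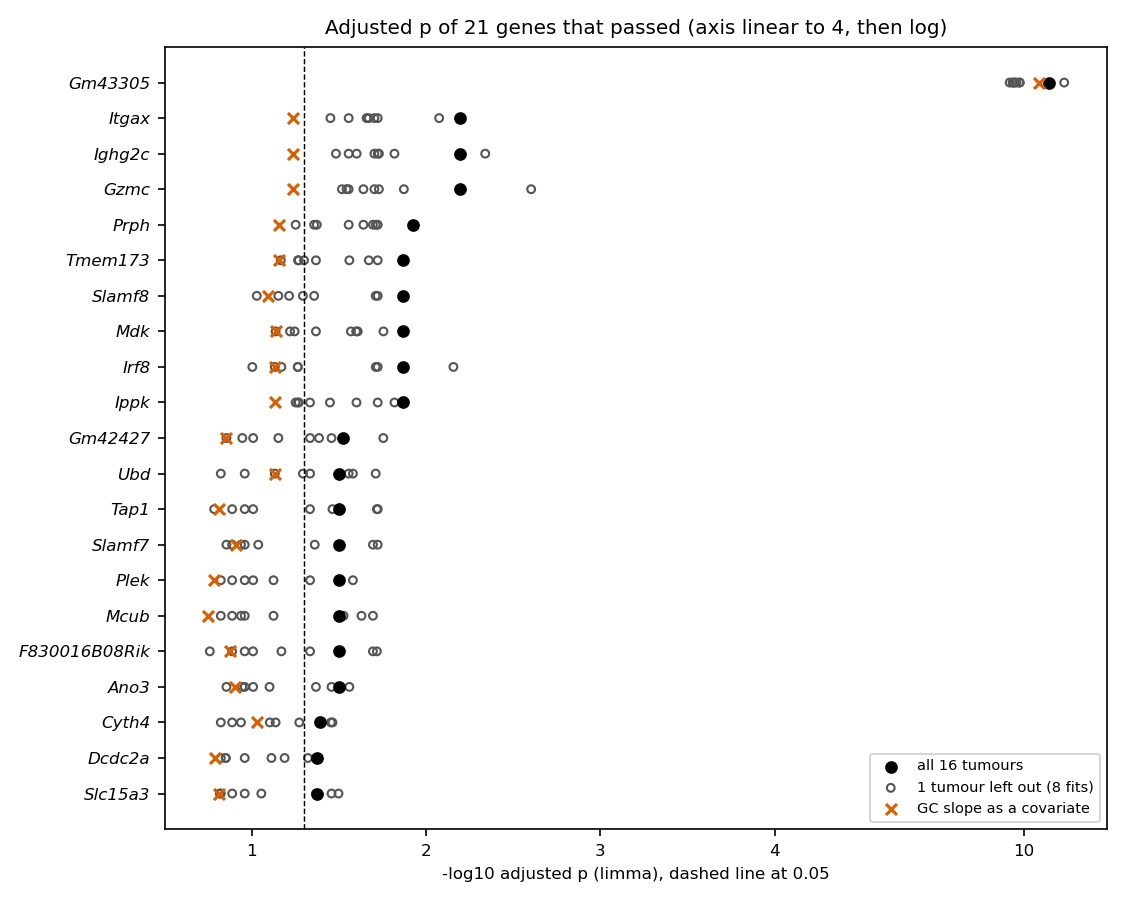
The -log10 adjusted p from limma (x axis, linear to 4 and logarithmic beyond) is shown for 21 of the 22 genes (y axis) with all 16 tumours in the fit (filled circle), with 1 of the 8 compared tumours left out (open circles) and with the GC slope as a covariate (cross). Gm43305 stays right of the dashed line at an adjusted p of 0.05 throughout, and Gzmc, Ighg2c and Itgax do so for the 8 fits that leave out a tumour.

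The widest separation was at Gm43305, a gene model on chromosome 14 (54292443 to 54297456, minus strand). It had 8191, 11926, 8331 and 11726 normalised counts in Mdk-knockdown tumours and 101, 182, 86.5 and 89.9 in anti-PD1 tumours. The lowest knockdown tumour was far above the highest anti-PD1 tumour, and the log2 fold change was 6.49 ± 0.23 (limma adjusted p = 1.16e-11). The combination had 5255 ± 1004 and the untreated controls 124 ± 30.3, so both shMdk groups were high and both shCtrl groups low. Whether similar sequences elsewhere in the genome share the reads of Gm43305 was not tested. Prph, encoding the neuronal intermediate filament peripherin, had means of 93.2 ± 48.1 and 13.2 ± 3.14 (2.64 ± 0.40, limma adjusted p = 0.0119), and the gene model Gm42427 had 78.0 ± 11.9 and 18.8 ± 10.0 (2.11 ± 0.37, adjusted p = 0.03). For both of these, too, the combination mean (78.8 ± 47.7 and 58.6 ± 19.9) lay near that of the Mdk-knockdown tumours, and the untreated mean (15.2 ± 6.54 and 17.6 ± 7.92) near that of the anti-PD1 tumours.

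**Figure D3:**
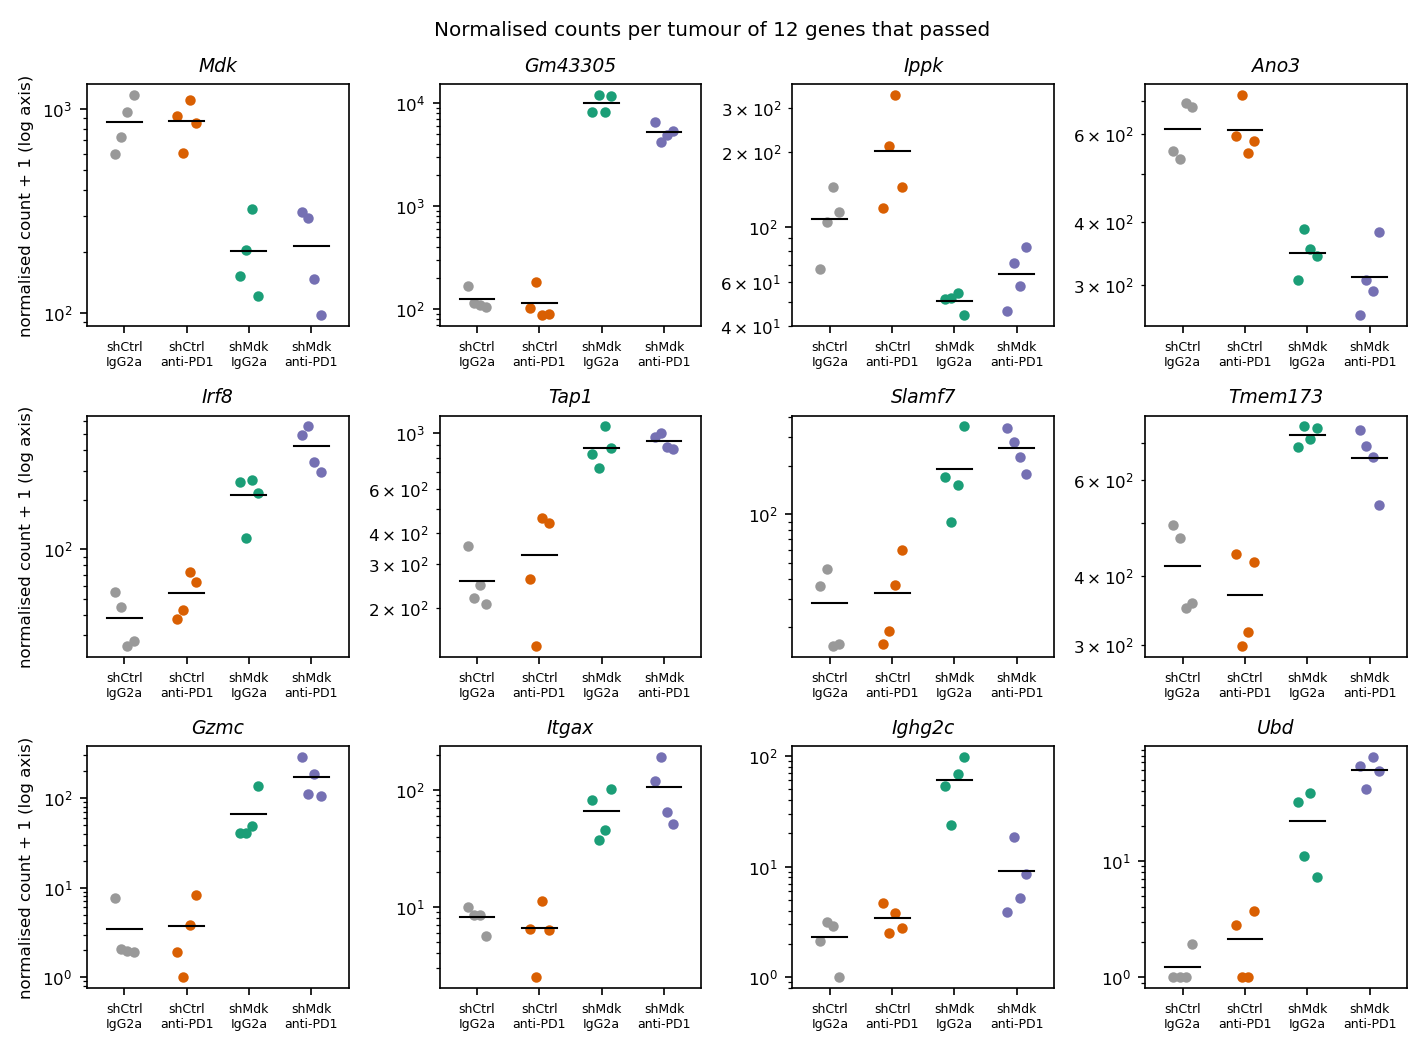
Normalised count + 1 per tumour (y axis, logarithmic) for 12 of the genes that passed, in the 4 groups of 4 tumours; horizontal bars mark group means. In each panel the shMdk IgG2a points (green) and the shCtrl anti-PD1 points (orange) do not overlap, and Mdk, Ippk and Ano3 are lower in shMdk IgG2a tumours while the other 9 are higher.

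Of 27 tested genes of the interferon gamma response, 2 rose in Mdk-knockdown over anti-PD1 tumours (Irf8 and Ubd), 0 fell and 25 did not pass. Over all genes 0.123% rose and 0.0273% fell. An unadjusted p under 0.05 was reached by 21, all higher in knockdown (7.05% of all genes were), and DESeq2 called 12. Over all 14672 genes DESeq2 called 213 higher and 32 lower. The median log2 fold change of the 27 was 1.82, beside 0.00 over all genes. Of the 27, 15 had non-overlapping groups with knockdown higher, against 4.59% of all genes. Irf8, a transcription factor of myeloid cells that also cooperates in interferon responses (chromosome 8, 120736358 to 120756694, plus strand), had 256, 116, 263 and 219 normalised counts in knockdown and 36.8, 42.0, 71.6 and 62.0 in anti-PD1 tumours. Every knockdown tumour was above every anti-PD1 tumour, with tumour 2 lowest among the knockdown tumours (1.97 ± 0.32, limma adjusted p = 0.0135). Ubd, a ubiquitin-like modifier induced by interferon gamma and tumour necrosis factor, had 31.2, 10.0, 37.0 and 6.31 against 1.84, 0, 0 and 2.70 (3.30 ± 0.58, adjusted p = 0.0314). Ubd was low throughout, with 2 anti-PD1 tumours at 0.

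Of the 27 members 24 had a log2 fold change above 0 and 3 below, Cxcl10 (-0.14), Socs1 (-0.81) and Wars (-0.011), none of which passed; these 3 were named for their sign. Cxcl9, a chemokine that draws activated T cells, had 382, 274, 633 and 452 in knockdown tumours and 32.2, 4.50, 112 and 105 in anti-PD1 tumours (3.44 ± 0.75, limma adjusted p = 0.066). Gbp4, a guanylate-binding GTPase, had 191, 150.1, 403 and 119.8 against 15.6, 3.00, 66.9 and 88.1 (2.95 ± 0.70, adjusted p = 0.0811). Neither gene's groups overlapped, and within the anti-PD1 group tumours 1 and 2 were lower than tumours 3 and 4 for both. The summed level of the 27 genes was 10475, 9899, 16471 and 9193 in knockdown tumours and 3881, 2576, 8174 and 6762 in anti-PD1 tumours. Near-identical copies among the guanylate-binding proteins can share reads, and Gbp4 is uncertain for that reason. With the GC slope as a covariate the list's median was 1.52 and 0 members passed. Without anti-PD1 tumour 3 or tumour 4, in turn, 10 members passed, and 0 did without anti-PD1 tumour 1 or 2 or knockdown tumour 1 or 3. Over all genes 66 and 64 passed without anti-PD1 tumours 3 and 4, and 8, 13, 6 and 6 in the other fits named, so the whole count moved too.

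Type I interferon genes were nearer the background. Of 34 tested, 0 passed in limma, and the median was 0.49. An unadjusted p under 0.05 was reached by 15, all higher in knockdown (7.05% of all genes were), and DESeq2 called 3. Oas3, an antiviral synthetase, had 112 ± 42.9 and 35.8 ± 12.7 (1.61 ± 0.39, adjusted p = 0.0833), and Irf7, which amplifies type I interferon production, had 496 ± 144 and 219 ± 70.9 (1.18 ± 0.31, adjusted p = 0.106; 0.71 ± 0.26 with the GC slope as a covariate). Tmem173, which encodes the DNA-sensing adaptor STING, was not in that list and passed. It had 688, 749, 712 and 744 against 438, 297, 316 and 423, a narrow spread on both sides, and a log2 fold change of 0.99 ± 0.16 (adjusted p = 0.0135).

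The 250 bases before the start of the passing genes were read from RefSeq (GRCm38.p6), which gave a window for 16 of the 22 genes. The windows were searched on both strands for TTCNNNGAA, the letters of the GAS element of interferon gamma responses, and for GAAANNGAAA, the letters shared by many interferon-stimulated response elements. The first was in 3 of the 16 windows (Irf8, Ippk and Dcdc2a) and in 7.02% of 32851 promoters of the same length. The second was in 1 of 16 (Slamf8) and in 2.98% of all promoters. Irf8 is printed because its window holds 2 matches to the first motif, 171 to 163 and 153 to 145 bases before the start, Slamf8 because it holds the match to the second, 15 to 6 bases before the start on the opposite strand, and Tap1 because it was the presentation gene that passed. Each is written 5′ to 3′ on the gene's strand, with matches in capitals; the Irf8 window is chr8:120736108-120736357 (plus), the Slamf8 window chr1:172590569-172590818 (minus) and the Tap1 window chr17:34187306-34187555 (plus). The Tap1 window holds no match to either motif. A match describes letters only, and binding was not measured.
Irf8: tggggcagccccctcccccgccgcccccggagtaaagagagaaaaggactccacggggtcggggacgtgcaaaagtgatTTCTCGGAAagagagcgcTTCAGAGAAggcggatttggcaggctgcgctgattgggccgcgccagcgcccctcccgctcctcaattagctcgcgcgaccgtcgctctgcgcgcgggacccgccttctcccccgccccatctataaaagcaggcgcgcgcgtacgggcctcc
Slamf8: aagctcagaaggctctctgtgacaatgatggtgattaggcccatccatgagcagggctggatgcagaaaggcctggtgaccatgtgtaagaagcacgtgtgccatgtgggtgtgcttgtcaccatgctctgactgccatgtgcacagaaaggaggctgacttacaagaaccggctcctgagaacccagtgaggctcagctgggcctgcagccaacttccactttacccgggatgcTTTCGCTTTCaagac
Tap1: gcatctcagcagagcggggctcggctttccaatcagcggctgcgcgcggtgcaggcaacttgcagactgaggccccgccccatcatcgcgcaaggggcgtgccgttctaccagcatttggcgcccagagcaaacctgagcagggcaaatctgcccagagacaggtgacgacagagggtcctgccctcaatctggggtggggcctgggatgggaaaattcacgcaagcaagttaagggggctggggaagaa

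MHC class II genes had the highest median among the antigen presentation lists. Of 9 tested, 0 passed in limma, 9 had an unadjusted p under 0.05 with knockdown higher (7.05% of all genes did), and DESeq2 called 5. The median log2 fold change was 2.43, and 7 of 9 had non-overlapping groups with knockdown higher, against 4.59% of all genes. H2-Ab1, the beta chain of the class II molecule I-A, had 1019, 482, 1535 and 856 in knockdown tumours and 77.2, 37.5, 334 and 322 in anti-PD1 tumours (2.74 ± 0.60, limma adjusted p = 0.066). Cd74, the invariant chain that escorts class II molecules, had 2032, 957, 2636 and 2619.7 against 110.4, 51.0, 538 and 776 (3.11 ± 0.70, adjusted p = 0.0694), and H2-DMa, which helps load class II peptides, had means of 260.4 ± 94.2 and 61.0 ± 48.4 (2.43 ± 0.50, adjusted p = 0.0553). The summed level of the 9 genes showed how the anti-PD1 group was itself divided, with 823 and 543 in tumours 1 and 2 and 2665 and 2886 in tumours 3 and 4. The knockdown tumours had 7549, 3831, 10613 and 6888, all above those, and the untreated controls 763 ± 389. Without anti-PD1 tumour 3, and likewise without tumour 4, 6 of the 9 genes passed, and without knockdown tumour 2 there were 2. Over all genes 66, 64 and 58 passed in those fits.

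In the class I pathway 1 of 17 tested genes rose, Tap1, and 0 fell (0.123% and 0.0273% of all genes did). An unadjusted p under 0.05 was reached by 8, all higher in knockdown (7.05% of all genes were), and DESeq2 called 3. Tap1, a subunit of the transporter that carries peptides into the endoplasmic reticulum (chromosome 17, 34187553 to 34197225, plus strand), had 829, 727, 1064 and 868 in knockdown tumours and 259, 139.6, 458 and 439 in anti-PD1 tumours. The lowest knockdown tumour exceeded the highest anti-PD1 tumour, and the log2 fold change was 1.56 ± 0.28 (limma adjusted p = 0.0314). Psmb9, an immunoproteasome subunit whose promoter window overlaps that of Tap1 on the opposite strand and which was picked out for that position after its value was seen, had 313 ± 131 and 256 ± 112 (0.31 ± 0.52, adjusted p = 0.799). Psmb10, another immunoproteasome subunit, had 1175, 957, 1155 and 1081 against 281, 249, 624 and 645 (1.41 ± 0.30, adjusted p = 0.0626). Its groups did not overlap, yet 0 of the 6 tested immunoproteasome genes passed in limma. An unadjusted p under 0.05 was reached by 3, all higher in knockdown (7.05% of all genes were), and DESeq2 called 2.

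The classical class I heavy chain H2-K1 and the light chain overlapped between the groups. H2-K1 had 4598, 5329, 6506 and 4209 in knockdown and 3711, 1379.6, 4299 and 4158 in anti-PD1 tumours (0.72 ± 0.27, limma adjusted p = 0.306), and anti-PD1 tumour 2 stood well below the rest. B2m, the light chain, had 30735 ± 4949.5 and 25316 ± 8159 (0.34 ± 0.23, adjusted p = 0.497). Without the libraries high in Gm42418, anti-PD1 tumour 2 among them, the log2 fold changes were 0.38 for H2-K1 and 0.17 for B2m. H2-Q7, a non-classical heavy chain named after its value was seen, did not overlap, at 110.2 ± 11.8 and 39.7 ± 27.5 (1.93 ± 0.53, adjusted p = 0.137). The 14 core proteasome genes, the catalytic subunits that the immunoproteasome replaces and other core subunits, had a median log2 fold change of 0.07. In limma 0 passed, 0 had an unadjusted p under 0.05, and DESeq2 called 0. Of the 14, 8 were above 0 and 6 below. The lowest, Psma5, did not overlap (-1.47 ± 0.73, limma adjusted p = 0.393), and with the GC slope as a covariate it was at 0.16 ± 0.19.

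Genes of cytotoxic lymphocytes had a median log2 fold change of 3.00 over 13 tested members, the highest of the 35 lists. Of these, 1 rose (Gzmc), beside 0.123% of all genes, and 0 fell. Non-overlapping groups with knockdown higher were seen for 9, against 4.59% of all genes. An unadjusted p under 0.05 was reached by 10, all higher in knockdown (7.05% of all genes were), and DESeq2 called 7. Gzmc, a granzyme of activated killer cells (chromosome 14, 56231441 to 56234656, minus strand), had 40.1, 39.1, 47.4 and 134 normalised counts in knockdown and 0.920, 0, 2.79 and 7.19 in anti-PD1 tumours (4.36 ± 0.63, limma adjusted p = 0.00636). Knockdown tumour 4 was the highest, and the smallest knockdown value was above all anti-PD1 values. Gzmc has near-identical neighbours that can share its reads. Nkg7, a granule membrane protein, had 28.9, 23.6, 26.5 and 31.5 against 0.920, 0, 5.58 and 8.09 (3.12 ± 0.63, adjusted p = 0.0553), and Prf1, the pore-forming perforin, had 17.1 ± 3.77 and 1.38 ± 1.20 (3.07 ± 0.69, adjusted p = 0.0694). These are small counts, and values of a few counts in the anti-PD1 tumours make the fold changes imprecise.

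T cell genes did not pass. Of 14 tested, 0 passed in limma, 8 had an unadjusted p under 0.05 with knockdown higher (7.05% of all genes did), DESeq2 called 2, and the median was 1.53. Cd3d, part of the CD3 signalling chains, had 8.90, 14.6, 11.4 and 15.8 in knockdown and 0.920, 0, 0.930 and 6.29 in anti-PD1 tumours (2.55 ± 0.58, limma adjusted p = 0.0694). Cd8a, which marks cytotoxic T cells, had 15.6, 4.55, 16.1 and 2.10 against 3.68, 0, 0.930 and 2.70, and its groups overlapped (1.8 ± 0.77, adjusted p = 0.352; 1.05 without the libraries high in Gm42418). Il2rb, a receptor chain for interleukins 2 and 15 on T and natural killer cells, had 43.7 ± 18.3 and 8.14 ± 5.31 (2.47 ± 0.54, adjusted p = 0.066). In whole tumours, more cells of a type and more RNA per cell cannot be told apart.

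The 8 tested B and plasma cell genes were all above 0, with a median log2 fold change of 1.22. An unadjusted p under 0.05 was reached by 4, all higher in knockdown (7.05% of all genes were), and DESeq2 called 1. In limma 1 rose (0.123% of all genes did), Ighg2c, the constant region of the immunoglobulin heavy chain of the IgG2c class. It had 52.3, 22.7, 68.3 and 95.7 in Mdk-knockdown tumours and 3.68, 1.5, 2.79 and 1.8 in anti-PD1 tumours (4.01 ± 0.56, limma adjusted p = 0.00636). The groups did not overlap, and knockdown tumour 2 was again lowest in its group. Its pattern over the other groups differed from that of Irf8 or Gzmc: the combination had 8.10 ± 6.65, nearer to the untreated controls (1.29 ± 0.962) than to Mdk knockdown alone (59.7 ± 30.5). For Irf8 the combination mean was 421 ± 125 and for Gzmc 169 ± 82.7, both above the mean of Mdk knockdown alone. Immunoglobulin genes resemble one another and can share reads.

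Genes found in all or most leukocytes had a median of 1.06 over 18 tested. There was 1 rise (Itgax) and 0 falls, beside 0.123% and 0.0273% of all genes. Non-overlapping groups with knockdown higher were seen for 8, against 4.59% of all genes. An unadjusted p under 0.05 was reached by 10, all higher in knockdown (7.05% of all genes were), and DESeq2 called 7. Itgax, the CD11c integrin of dendritic cells and some macrophages (chromosome 7, 128129547 to 128150657, plus strand), had 81.2, 36.4, 44.6 and 101 in knockdown and 5.52, 1.5, 10.2 and 5.39 in anti-PD1 tumours. No tumours overlapped, and the log2 fold change was 3.39 ± 0.48 (limma adjusted p = 0.00636). Slamf8 and Slamf7, surface receptors of the SLAM family on myeloid cells and on lymphocytes and myeloid cells, had means of 90.8 ± 32.5 and 14.3 ± 6.30 (2.63 ± 0.43, adjusted p = 0.0135) and of 189 ± 112 and 31.8 ± 20.4 (2.57 ± 0.47, adjusted p = 0.0314). Plek, the protein kinase C substrate pleckstrin of blood cells, had 126, 76.4, 112 and 103 against 29.4, 33.0, 29.8 and 40.4 (1.61 ± 0.29, adjusted p = 0.0314). Cyth4, an exchange factor for ARF GTPases, had 218 ± 76.6 and 86.5 ± 8.21 (1.27 ± 0.24, adjusted p = 0.0404), and Slc15a3, a lysosomal peptide and histidine transporter, had 178 ± 85.5 and 30.7 ± 15.6 (2.59 ± 0.49, adjusted p = 0.0425). Of these 6 genes only Itgax passed in all 8 fits that left out a tumour; the other 5 passed in 2 to 4.

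Macrophage and monocyte markers did not pass in limma: 0 of 26, with 9 called by DESeq2 and a median of 1.45. An unadjusted p under 0.05 was reached by 21, all higher in knockdown (7.05% of all genes were). Fcgr4, an activating receptor for IgG, had 452, 173, 392 and 478 in knockdown and 68.1, 51.0, 140.4 and 136 in anti-PD1 tumours (1.93 ± 0.40, limma adjusted p = 0.0553). Adgre1, the F4/80 antigen of macrophages, had 112, 30.0, 59.7 and 77.8 against 14.7, 0, 42.8 and 32.4, with overlap (2.38 ± 0.82, adjusted p = 0.264; 0.90 without the libraries high in Gm42418). For both genes knockdown tumour 2 was lowest in its group and anti-PD1 tumour 2 lowest in the other. Arg1, an arginase of alternatively activated myeloid cells, had 142 ± 66.3 and 52.3 ± 60.0 and overlapped (adjusted p = 0.218), while the combination had 730.4 ± 177. Of the other myeloid lists, 0 of 11 alternatively activated, 0 of 12 neutrophil and 1 of 8 dendritic cell genes passed in limma, the last again Itgax. Over all genes 0.123% passed as higher in knockdown. Unadjusted p under 0.05 was reached by 3, 4 and 3 genes with knockdown higher (7.05% of all genes) and 1, 0 and 1 with knockdown lower (5.97%). DESeq2 called 2, 0 and 2. The medians of these lists were 1.03, 0.42 and 0.50. Of the 11 alternatively activated genes 8 were above 0 and 3 below. Their groups did not overlap for 2 with knockdown higher and 1 with knockdown lower (4.59% and 5.26% of all genes).

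Complement genes, expressed by macrophages and stroma, had a median of 1.5 over 12 tested. In limma 0 passed, and DESeq2 called 3. With knockdown higher, 10 had an unadjusted p under 0.05 (7.05% of all genes did) and 7 had non-overlapping groups (4.59% of all genes). C4b, a component of the classical pathway, had 531, 316, 505 and 518 in knockdown and 212, 186, 278 and 220.2 in anti-PD1 tumours (1.04 ± 0.25, limma adjusted p = 0.0833). C3ar1, the receptor for the C3a fragment, had 307 ± 125 and 105 ± 49.0 (1.57 ± 0.40, adjusted p = 0.0982; 0.95 ± 0.33 with the GC slope as a covariate). The summed complement level was 2475 to 4815 in knockdown and 1091 to 2401 in anti-PD1 tumours, so the groups only just failed to overlap.

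Among 17 chemokine ligands and 11 checkpoint genes 0 passed in limma, and 3 and 1 were called by DESeq2. An unadjusted p under 0.05 was reached by 9 and 3, all higher in knockdown (7.05% of all genes were). Cxcl16, a membrane-bound chemokine of myeloid cells, had 161, 76.4, 166 and 241 against 23.9, 1.5, 37.2 and 43.1 (3.06 ± 0.67, limma adjusted p = 0.0663). Cd274, which encodes the PD1 ligand PD-L1, had 91.2, 212, 256 and 388 in knockdown and 119.6, 49.5, 92.0 and 112 in anti-PD1 tumours (1.23 ± 0.45, adjusted p = 0.294). With the GC slope as a covariate the Cd274 difference was 0.54 ± 0.38, and without the libraries of GC slope above 0.05 it was 0.65 ± 0.36. Knockdown tumour 1 lay within the anti-PD1 range for Cd274, the other 3 above it. Axl, a receptor kinase of dedifferentiated melanoma cells and of macrophages, had 901, 516, 1216 and 1230.0 against 392, 213, 439 and 403 (1.39 ± 0.30, adjusted p = 0.0597), and its groups did not overlap. It was not typical of its list: of 13 genes of the dedifferentiated melanoma state 0 passed in limma and DESeq2 called 2. Their median was 0.26, with 8 above 0 and 5 below, the lowest at -2.26.

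**Figure D4:**
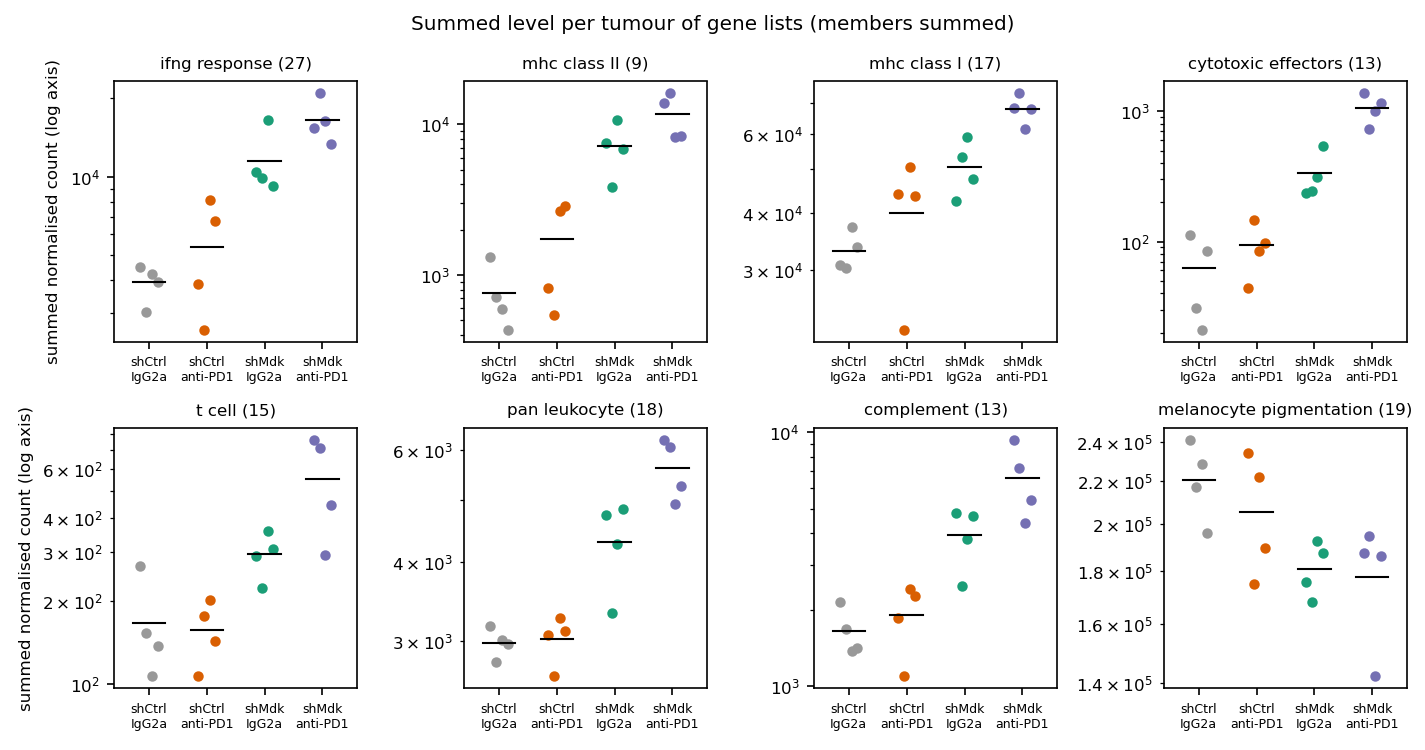
The summed normalised count of 8 gene lists per tumour (y axis, logarithmic) in the 4 groups of 4 tumours, with bars at the group means and the number of genes summed in parentheses. MHC class II and cytotoxic sums do not overlap between shMdk IgG2a (green) and shCtrl anti-PD1 tumours (orange), MHC class I and pigmentation sums do, and the anti-PD1 tumours split for MHC class II into 543 and 823 against 2665 and 2886.

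The 3 genes besides Mdk that were lower in Mdk-knockdown than in anti-PD1 tumours have no shared textbook pathway. Ippk, the kinase that makes inositol hexakisphosphate (chromosome 13, 49421249 to 49464573, plus strand), had 50.1, 50.9, 53.1 and 43.1 in knockdown and 118, 209, 335 and 143 in anti-PD1 tumours (-1.89 ± 0.30, limma adjusted p = 0.0135). The knockdown tumours were tightly grouped, and the untreated controls lay between the groups at 106 ± 31.5. Against those controls neither side passed: -1.05 ± 0.30 with knockdown (adjusted p = 0.106) and 0.84 ± 0.30 with anti-PD1 (adjusted p = 0.798). Ano3, a membrane protein of the anoctamin family (chromosome 2, 110655201 to 110950923, minus strand), had 305, 387, 352 and 342 against 595, 716, 549 and 581 (-0.81 ± 0.15, adjusted p = 0.0314). Dcdc2a, a doublecortin-domain protein that binds microtubules, had 145, 142, 142 and 117 against 267, 234, 202 and 255 (-0.81 ± 0.15, adjusted p = 0.0422). For both, the anti-PD1 mean was close to the untreated mean (614 ± 81.4 for Ano3 and 221 ± 30.1 for Dcdc2a) and the combination mean close to that of knockdown alone (309 ± 52.1 and 132 ± 15.7). Snapc5, a subunit of the complex that starts small nuclear RNA transcription, had 27.8, 38.2, 32.2 and 32.6 against 70.8, 55.5, 71.6 and 64.7 and just missed the threshold (-0.99 ± 0.21, adjusted p = 0.0594).

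Mcub was the counterpart of Ippk in the other direction. It encodes a subunit of the mitochondrial calcium uniporter that dampens calcium entry, and had 41.2, 16.4, 39.8 and 46.3 in knockdown and 3.68, 1.5, 10.2 and 7.19 in anti-PD1 tumours (2.59 ± 0.47, limma adjusted p = 0.0314). The untreated controls were in between, at 11.4 ± 4.44. Against them the knockdown difference was 1.55 ± 0.47 (adjusted p = 0.145) and the anti-PD1 difference -1.04 ± 0.47 (adjusted p = 0.798), so neither intervention alone passed. F830016B08Rik, a predicted interferon-inducible GTPase, had 27.3 ± 10.1 and 4.99 ± 2.96 (2.29 ± 0.42, adjusted p = 0.0314).

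Among genes of pigmentation, the cell cycle, Myc and its network partners, and hypoxia and glycolysis, 0 passed in limma. The cells that their RNA came from were not measured. Of 19 pigmentation genes 0 passed in limma, with 0 called by DESeq2 and a median of -0.22. An unadjusted p under 0.05 was reached by 6, all lower in knockdown (5.97% of all genes were). Tyr, the first enzyme of melanin synthesis, had 876, 1181, 1069 and 956 in knockdown and 2627, 1476, 2043 and 1287 in anti-PD1 tumours, without overlap but with a wide anti-PD1 range (-0.82 ± 0.32, limma adjusted p = 0.316; -0.34 ± 0.27 with the GC slope as a covariate). Of 28 cell cycle genes 0 passed in limma, 0 were called by DESeq2, and the median was -0.21. At an unadjusted p under 0.05, 1 was higher and 5 lower (7.05% and 5.97% of all genes). Mki67, a marker of cycling cells, had 1934 ± 446 and 1587 ± 274 with overlap (0.27 ± 0.20, adjusted p = 0.526), and its sign was negative (-0.03 ± 0.16) with the GC slope as a covariate. Myc, a transcription factor that drives growth, had 17.8, 39.1, 19 and 32.6 against 101, 75.1, 65.1 and 58.4 (-1.48 ± 0.41, adjusted p = 0.138; 0.0406 in DESeq2; -0.96 ± 0.39 with the GC slope as a covariate), and its groups did not overlap. Of 22 hypoxia and glycolysis genes 0 passed in limma and 0 were called by DESeq2, with a median of -0.12, 9 above 0 and 13 below. At an unadjusted p under 0.05, 1 was higher and 3 lower (7.05% and 5.97% of all genes). Car9, a carbonic anhydrase induced by hypoxia, had 247, 256, 172 and 75.7 against 709, 416, 559.7 and 596, again without overlap (-1.72 ± 0.62, adjusted p = 0.29). With the GC slope as a covariate its difference was -0.48 ± 0.35. Pgam1, of the same list, went the other way with overlap (0.60 ± 0.24, limma adjusted p = 0.333, and 0.17 ± 0.16 with that covariate).

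**Figure D5:**
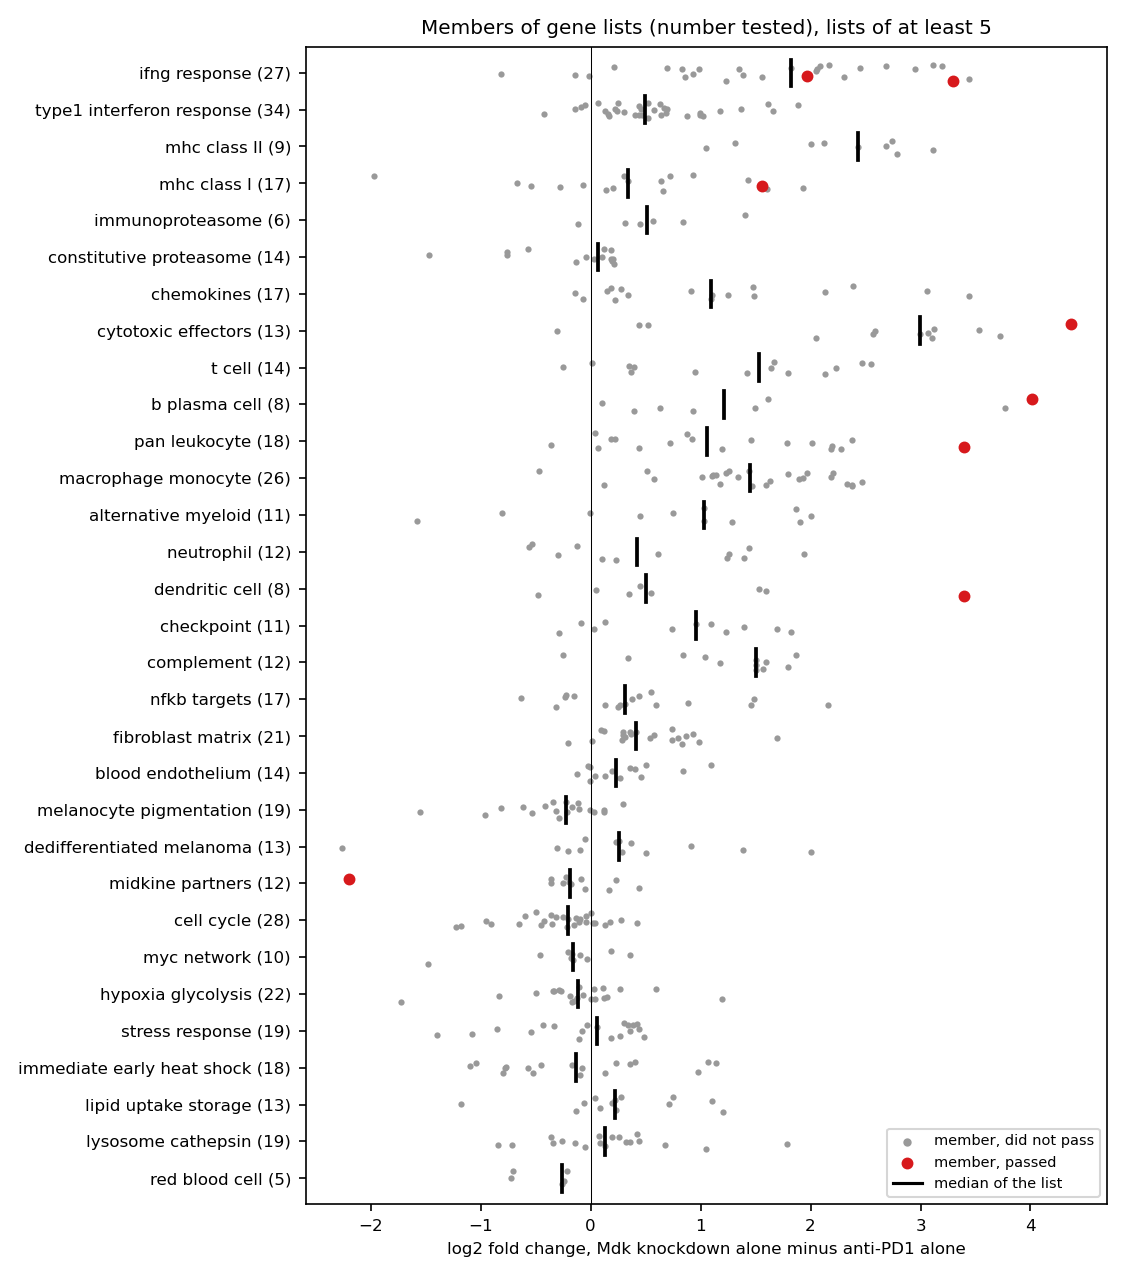
Each point is a gene of a list of at least 5 tested genes (y axis, number tested in parentheses) at its log2 fold change, Mdk knockdown alone minus anti-PD1 alone (x axis); red points passed and black bars are list medians. Medians of the lists drawn run from -0.26 for red blood cell genes to 3.00 for cytotoxic effectors.

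The head-to-head differences equal the difference of each intervention's own change from the shared untreated controls, which are set side by side here. Against those controls, Mdk knockdown alone changed 255 genes (1.74%) in limma, 239 higher (1.63%) and 16 lower (0.109%), with 1422 (9.69%) at an unadjusted p under 0.05. Anti-PD1 alone changed 0 (556, or 3.79%, at an unadjusted p under 0.05). The median log2 change of interferon gamma response genes was 2.49 with knockdown and 0.60 with anti-PD1. For MHC class II genes it was 3.39 and 0.94, for cytotoxic genes 2.98 and 0.10, for complement 1.51 and 0.20, and for pigmentation -0.16 and 0.05. Irf8 changed by 2.49 ± 0.32 with knockdown (adjusted p = 0.00104) and by 0.52 ± 0.32 with anti-PD1 (adjusted p = 0.798, did not pass). For Gbp4 the values were 4.76 ± 0.70 (adjusted p = 0.00215) and 1.82 ± 0.70 (adjusted p = 0.798), an example of a gene whose head-to-head difference did not pass while its knockdown effect did. Sdc3 had 1.18 ± 0.20 (adjusted p = 0.00428) and 0.95 ± 0.20 (adjusted p = 0.577), and a head-to-head difference of 0.23.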

How the data were processed

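RNA of 16 B16R2L tumours was sequenced from 3′ ends with a stranded QuantSeq kit, per the labels' protocols. The submitters' processing notes name TopHat2 2.0.10 with Bowtie 1.0.0, SAMtools 0.1.19, FastQC 0.11.0, HTSeq and DESeq2 as tools, and GRCm38 (mm10) as the build. Each value of the deposited table is a signal, a normalised read count: the authors divided the reads of a gene by the DESeq2 size factor of the tumour, as the values themselves show. Whole reads were recovered: 100% of values were whole within 0.001. The table listed 16094 genes, and 0 columns of sample values were left unused.

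Genes were tested with limma 3.58.1 (R 4.3.3) on log2(normalised count + 1), pseudocount 1, with all 16 tumours, 12 residual degrees of freedom, moderated variances with an expression trend and Benjamini-Hochberg adjustment (adjusted p under 0.05) over the 14672 genes with a mean of at least 5. Fold changes on this scale understate those of low genes. On the recovered reads edgeR 4.0.16 called 23 genes and DESeq2 1.42.0 called 245. Errors are SDs over tumours or SEs of the fit, and scripts were tested on simulated data.

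The GC slope of a library came from 10831 genes, 92.2% of those with a mean of at least 20, using the last 300 bases of their transcripts. Lists of genes by function and cell type, 35 in all, are described by counts and medians. Genes named were Mdk, the 10 largest rises and falls among passing genes with non-overlapping groups (or the 5 of smallest p), up to 4 passing or 2 smallest-p members of each list, and a fixed set; the remaining passing genes were added, and 1 passing gene and 1 of the fixed set are not reported here. Members, lists and the fixed set were chosen with earlier results of these data known. Alternatives varied the pseudocount, filter, scaling, trend, weights, tool, groups fitted and tumours included.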

Additional observations from a re-analysis of the deposited data

Results flagged for a closer look

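Within a group of 4 tumours, a value was picked out where its gap to the nearest other took up more of the group's range than Dixon's critical value for 4 samples allows. Of 154 groups checked, 12 had such a value, and chance alone gives about 1 in 20. In Mdk-knockdown tumours these were, on the log2(normalised count + 1) scale, Gzmc at 7.07 (high) and Dcdc2a at 6.88 (low) in tumour 4, and Prf1 at 4.57 (high) in tumour 3. Tumour 2 of that group was low for Mcub (4.12), C4b (8.31) and Ctss (9.13) and high for Dhrs2 (7.66). In the anti-PD1 group, tumour 2 was low for H2-K1 (10.43) and Axl (7.74), had the highest share of reads on Gm42418 (4.47%) and the fewest reads (5686405). Anti-PD1 tumour 4 had a GC slope of -0.0546, higher than the other 3.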

How the results depend on the processing

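Over the alternatives the 22 passing genes kept their direction (21 of 21 where a mean of at least 20 was required), while the number that passed did not hold. In place of 22 (18 higher, 4 lower with Mdk knockdown), it was 245 (213, 32) in DESeq2, 318 (224, 94) with tumour weights, 50 (46, 4) with a pseudocount of 5, 5 (4, 1) with only the 8 tumours compared, 2 (2, 0) with the GC slope as a covariate, 3 (3, 0) without the libraries high in Gm42418 and 1 (1, 0) without the libraries of GC slope above 0.05, where fewer tumours remained; other causes were not tested. At the covariate fit 914 genes had an unadjusted p under 0.05, against 1911. TMM factors, edgeR, a pseudocount of 0.5 and either other filter gave 21 to 24 and lost at most 1 of the 22 calls. The fit with no variance trend gave 26, of which 17 were among the 22, and 5 of the 22 were lost. Leaving out each tumour gave 6 to 66 genes, 5 to 61 higher and 0 to 6 lower. Of the 22 calls, 14, 11, 1 and 1 were lost without anti-PD1 tumours 1 to 4 in turn, and 16, 0, 16 and 15 without knockdown tumours 1 to 4. Mki67 changed sign with the GC slope as a covariate (-0.031), and Hbb-bs, a haemoglobin gene at -0.73, with tumour weights (0.26), without the libraries high in Gm42418 (0.41) and without anti-PD1 tumour 2 (0.74, within a range of -1.63 to 0.74 over the tumours left out). No paired analysis was possible because the labels carry no replicate numbers. Genes of a few counts in the anti-PD1 tumours have the least precise fold changes.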

Other observations

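In the stromal and metabolic gene groups below, 0 genes passed in limma between the single interventions. For the counts below, 7.05% of all genes were higher and 5.97% lower in knockdown at an unadjusted p under 0.05. Of 21 fibroblast and matrix genes, 0 passed in limma (2 higher at an unadjusted p under 0.05, 0 called by DESeq2), with a median log2 fold change of 0.41. In that list 20 genes were above 0 and 1 below, beside 50.4% of all genes above 0. The upper quartile over all genes was 0.26. Of 14 blood endothelial genes 0 passed (1 higher, 0 called by DESeq2), with a median of 0.23, 10 above 0 and 4 below. Among 17 NF-kB factors and targets 0 passed (5 higher unadjusted, 0 called by DESeq2). Vcam1, an adhesion molecule for leukocytes, had 137, 73.7, 108 and 82.0 normalised counts in Mdk-knockdown and 42.3, 12, 55.8 and 49.4 in anti-PD1 tumours (1.46 ± 0.44, limma adjusted p = 0.185; 0.82 without the libraries high in Gm42418), and Cd40, a receptor for T cell help on antigen-presenting cells, had means of 11.0 ± 4.51 and 2.06 ± 1.88 (2.16 ± 0.54, adjusted p = 0.095). The groups overlapped for neither gene.

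Lysosomal genes had a median of 0.13 over 19 tested, and 0 passed in limma (4 higher and 1 lower unadjusted, 1 called by DESeq2). Ctss, the cathepsin that trims the invariant chain in antigen-presenting cells, had 1078, 559, 1110.1 and 1233 in knockdown and 274, 75.1, 512 and 546 in anti-PD1 tumours (1.79 ± 0.52, limma adjusted p = 0.163; 1.10 without the libraries high in Gm42418). Among 13 lipid genes 0 passed (2 higher and 1 lower unadjusted, 1 called by DESeq2). Nr1h3, the sterol-sensing receptor LXR alpha, had 43.4, 40.9, 36 and 38.9 against 23, 9.01, 13.9 and 26.1 (1.21 ± 0.31, adjusted p = 0.103), and Lpl, lipoprotein lipase, had 396 ± 86.5 and 203 ± 97.7 with overlap (1.10 ± 0.36, adjusted p = 0.234; 0.63 without those libraries). Stress genes had a median of 0.06 over 19 and immediate early and heat shock genes -0.13 over 18, with 0 passing in limma (3 lower, and 1 higher and 1 lower, unadjusted; 0 called by DESeq2). Xbp1, a transcription factor of the unfolded protein response, had 216, 253, 149.8 and 62.0 against 405, 336, 527 and 342, without overlap (-1.39 ± 0.51, adjusted p = 0.296); with the GC slope as a covariate its difference was -0.29 ± 0.20.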
